A study of Mus musculus with 12 samples.

Results

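The genes described here are targets of ATF4, the transcription factor that carries the integrated stress response, in mouse dorsal root ganglia. The list held 36 gene symbols of this response and was chosen by measured values. Some of its genes, not all, had stood out together in 1 of the 12 RNA pools of the series. That was the pool titled c-Maf mutant #3 (mutant pool 3 from here on). Of the 36 genes, 33 had a probe in the annotation, against 16593 genes with a named probe in all, and 25 passed the filter on dim probes, against 9223 genes in all. Pycr1, Xpot and Gdf15 were not analysed here.

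The series compared RNA of lumbar dorsal root ganglia, levels L3 to L6, on Illumina BeadChip arrays. The mutant group was 6 pools from mice with a conditional c-Maf (Maf) mutation and Isl1-Cre, in which Cre follows the promoter of Isl1, a transcription factor gene of sensory neurons. The control group was 6 pools labelled wild type. All mice were 15 days old and of a mixed C57/BL6;129Ola strain. The labels state neither the number of mice in a pool nor whether pools shared mice, so p-values measure only the spread between pools. The array identifiers place pools 1 to 3 of each genotype on chip 1 and pools 4 to 6 on chip 2.

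Cells start the integrated stress response when amino acids run short, when proteins misfold in the endoplasmic reticulum (ER), or when haem or mitochondrial function fails, through kinases that phosphorylate the translation factor eIF2. General protein synthesis then falls while the Atf4 mRNA is translated more, and ATF4 switches on genes for amino acid synthesis and uptake, tRNA charging, glutathione turnover and, if stress lasts, cell death. In sensory neurons, parts of this programme are known to be engaged after axon injury.

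All levels below are normalised log2 probe intensities, on which a difference of 1 is a doubling. Each gene is given by the detected probe with the highest mean. Levels of different genes are not compared, since probes differ in brightness. A gene was kept when 6 or more arrays detected it (detection p under 0.05), so a signal in mutant pool 3 alone could not carry a gene past the filter. The number of arrays, not a read depth, limits the precision.

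In mutant pool 3 the list stood high as a whole. Of the 25 tested genes, 24 lay above the mean of the other 11 pools, and 20 were higher in mutant pool 3 than in every other pool, where 19.6% of all tested genes were. A difference of at least 1 was met by 7 of the 25, namely Chac1, Mthfd2, Nupr1, Slc7a5, Slc6a9, Shmt2 and Slc7a3, and by 0.412% of all tested genes. None of the 25 lay at least 1 below the mean of the other pools (0.694% of all tested genes did), and none was lowest of the 12 pools (16% of all tested genes were). The median difference of the 25 genes was 0.76, against 0.02 over all tested genes. These values chose the genes, so they are a description with no test, and nothing is read from the shares.

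In each of the other 11 pools, set in turn against the remaining ones (mutant pool 3 among them), none of the 25 genes lay at least 1 above, and the median difference of the genes lay between -0.17 and -0.01. Chac1 was the gene with the second largest positive difference of all 9223 in mutant pool 3. Among the 20 genes with the largest differences 5 were of the list, among the first 50 there were 10, and among the first 100 there were 12. Just inside the difference of 1 were Slc7a3 with 1.11 and Shmt2 with 1.16. Just outside it were Eif4ebp1 with 0.98, Ddit3 with 0.96 and Aldh1l2 with 0.95.

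**Figure D1:**
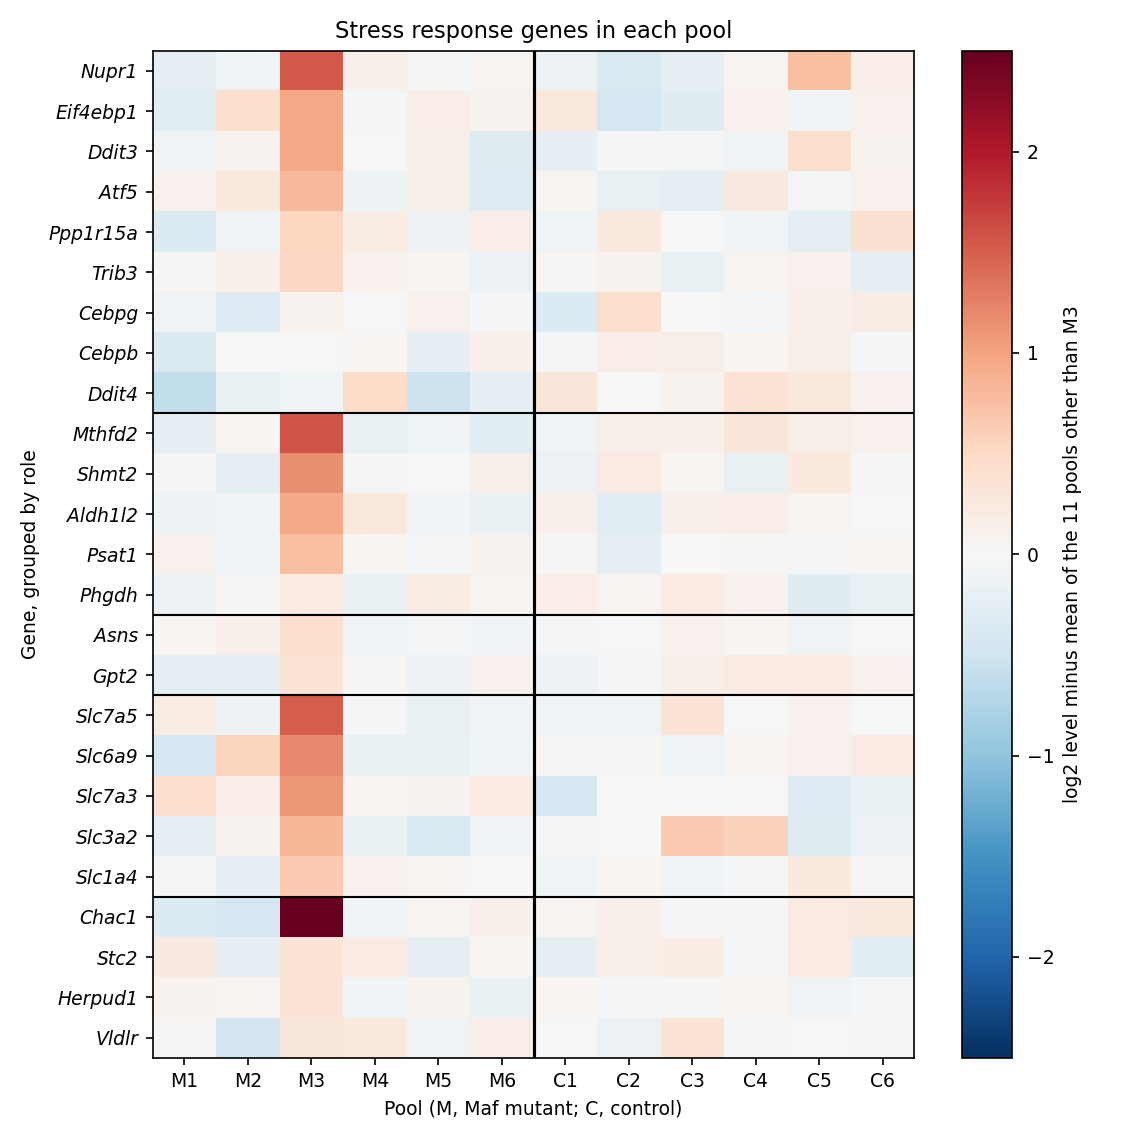
Log2 level of the 25 tested genes (rows, grouped from top to bottom as regulators, serine and one-carbon enzymes, other amino acid enzymes, transporters, and glutathione, ER and secreted factors) in the 12 pools (columns, mutant pools M1 to M6, then control pools C1 to C6), as the difference from the mean of the 11 pools other than M3. The column of M3 is red in nearly every row, with Chac1 at 2.50, while Cebpg, Cebpb and Ddit4 stand between -0.11 and 0.09 there.

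The upstream regulator was measured by a single probe. Atf4 (chromosome 15) had a level of 10.64 in mutant pool 3, the highest of the 12 pools. The other mutant pools had 9.27, 9.18, 9.90, 7.51 and 7.46, and the control pools had 10.02, 9.08, 9.23, 9.99, 7.48 and 7.33. Pools 5 and 6 of both genotypes were thus low, and the other 8 pools lay above them without overlap. Mutant pool 3 lay 1.87 above the mean of the other 11 pools and 1.11 above the mean of the other pools numbered 1 to 4. For 0 of the 25 target genes did those 4 pools lie below all the others. What set the 4 Atf4 values apart was not tested.

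Of 9 tested genes for the eIF2 kinases, eIF2B subunits and related control, Atf4 itself was the only one at least 0.5 above the other pools. Eif2ak3, which encodes the ER stress kinase PERK, differed by 0.06, Eif2ak2, the RNA-sensing kinase PKR, by 0.08, and Eif2ak1, the haem-sensing kinase, by 0.09. Eif2b2 and Eif2b1, for subunits of the guanine exchange factor that recharges eIF2, lay 0.35 and 0.23 above and were highest of the 12 pools. Impact, which encodes an inhibitor of the amino acid sensor GCN2, differed by -0.32 and was lowest of the 12. Eif2ak4, the gene of GCN2 itself, was not detected on any array. Atf3, for a stress-induced transcription factor, was detected on 5 arrays and not tested. It had 6.17 in mutant pool 3, against 4.93 to 5.54 in the other 11 pools. Ppp1r15b was also detected on 5 arrays and not tested, with 4.95 in mutant pool 3, against 5.13 to 5.61 in the others.

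The deletion mark of the genotype was as labelled in this pool. The Maf probe was not detected in any of the 6 mutant pools, where its values were 4.70, 4.49, 4.61 (mutant pool 3), 4.50, 4.57 and 4.55, and was detected in all 6 control pools, with a lowest value of 7.11 and a highest of 7.87. The groups did not overlap. The difference was -2.88 over the 11 pools without mutant pool 3 (limma adjusted p = 7.3e-08) and -2.87 over all 12 (adjusted p = 6.3e-09). The position of the probe relative to the deleted part is not stated in the labels.

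Among the regulators in the list, Nupr1 had the largest difference. Nupr1 encodes a small stress-induced chromatin protein and had 8.65 in mutant pool 3, against 6.86, 6.99, 7.24, 7.05 and 7.17 in the other mutant pools. Its control pools had a lowest level of 6.73, a median of 7.06 and a highest of 7.86, so that 1 control pool, number 5, also stood above its group. Mutant pool 3 lay above all 11, 1.54 over their mean (2.91-fold).

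A further 5 regulators lay 0.5 to 1 above the other pools in mutant pool 3 and higher than in any of them. Eif4ebp1, which encodes a repressor of cap-dependent translation, had 8.28 in mutant pool 3, against 7.01, 7.69, 7.27, 7.46 and 7.39 in the other mutant pools and 6.86 to 7.56 in the control pools. Ddit3, which encodes the death-promoting factor CHOP, had 9.25 against 7.99 to 8.74 in the other 11, and its second probe gave nearly the same difference, 0.95. Atf5, a transcription factor gene controlled in its translation much as Atf4 is, had 10.01 against 8.87 to 9.44. Ppp1r15a, whose product GADD34 returns eIF2 to its unphosphorylated form, had 8.76 against 7.89 to 8.61, a difference of 0.53.

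Trib3, which encodes a pseudokinase that restrains ATF4 and AKT signalling, had 5.91 in mutant pool 3, 5.42, 5.52, 5.51, 5.45 and 5.25 in the other mutant pools, and 5.15, 5.45 and 5.50 as lowest, median and highest of the control pools. Mutant pool 3 was above all the others, and the probe was detected on 9 of 12 arrays. In the other tested regulators mutant pool 3 lay within the range of the other pools. Cebpb and Cebpg, which encode C/EBP partners of ATF4, differed by 0.01 and 0.09. Ddit4, which encodes the mTORC1 inhibitor REDD1, differed by -0.11, and mutant pool 3 was number 8 of the 12 from the top. Sesn2, for a leucine-sensing inhibitor of mTORC1, was detected in mutant pool 3 only, at 5.35 with an upper value of 5.25 among the other pools.

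Of the 5 tested genes of serine synthesis and mitochondrial one-carbon metabolism, 4 lay at least 0.5 above in mutant pool 3. Mthfd2, which encodes a mitochondrial folate dehydrogenase, had 9.16 in mutant pool 3, 7.38, 7.66, 7.40, 7.48 and 7.32 in the other mutant pools, and 7.49, 7.73 and 7.90 as lowest, median and highest of the control pools. Mutant pool 3 was clear of all the others, and the difference was 1.57 (2.97-fold). Shmt2, for the mitochondrial enzyme that splits serine into glycine and a one-carbon unit, had 7.79 in mutant pool 3, 6.60, 6.42, 6.62, 6.64 and 6.79 in the other mutant pools, and 6.46, 6.64 and 6.88 as lowest, median and highest of the control pools. A second Shmt2 probe, detected on 1 array that was not mutant pool 3's, gave a difference of 0.01.

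Psat1, the aminotransferase of serine synthesis, had 10.28 in mutant pool 3, against 9.62, 9.45, 9.58, 9.49 and 9.61 in the other mutant pools and 9.31, 9.53 and 9.59 as lowest, median and highest of the control pools. Its difference of 0.76 was 1.69-fold, and the SD of the other 11 pools was 0.09. Aldh1l2, which encodes the mitochondrial formyltetrahydrofolate dehydrogenase, lay 0.95 above by its brightest probe and 1.29 above by a dimmer one. Phgdh, the first enzyme of serine synthesis, had 7.57 in mutant pool 3 and 7.07 to 7.57 in the others, a difference of 0.20 within their range. Psph was not detected on any array.

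**Figure D2:**
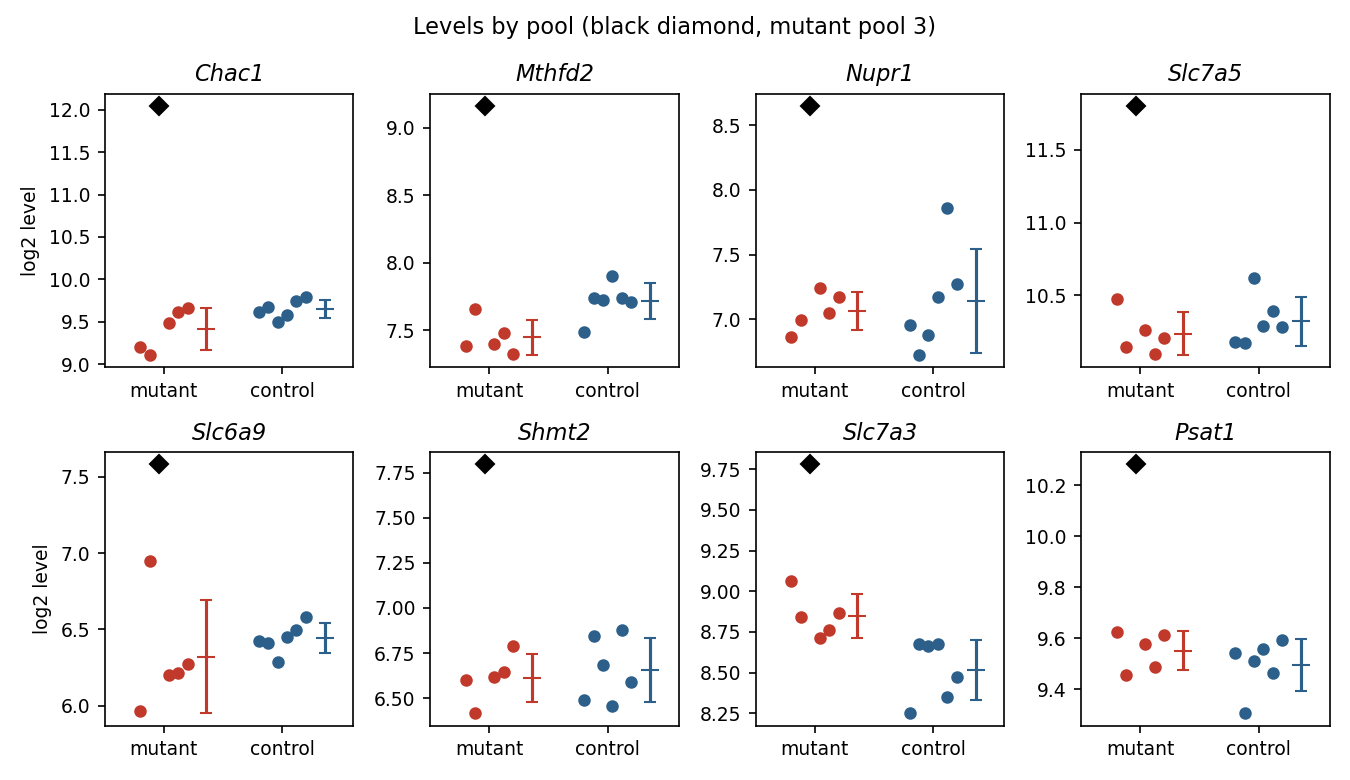
Log2 level of 8 genes in each pool, mutant pools left of control pools, with mutant pool 3 as a black diamond and the mean with SD of the other 5 mutant pools and of the 6 control pools beside the points. The diamond lies above every other point in all 8 panels, and the vertical axes differ between panels and do not start at 0.

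Other amino acid enzymes showed smaller differences. Asns, asparagine synthetase, had 13.19 in mutant pool 3 and 12.70 to 12.93 in the other 11 pools by its brightest probe, a difference of 0.39. Its dimmer probes gave 0.57 and 0.73, with mutant pool 3 highest by each. Gpt2, a mitochondrial alanine aminotransferase, lay 0.35 above. Pck2, Cbs and Cth, which encode mitochondrial PEP carboxykinase and the enzymes that turn homocysteine into cysteine, were not detected on any array.

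All 5 tested transporters were highest in mutant pool 3, each by at least 0.5 over the mean of the others. Slc7a5, the light chain LAT1 of the large neutral amino acid exchanger, had 11.80 in mutant pool 3, 10.47, 10.15, 10.26, 10.10 and 10.21 in the other mutant pools, and 10.17, 10.28 and 10.62 as lowest, median and highest of the control pools. The difference was 1.52 (2.87-fold), with 1.19 between mutant pool 3 and the next pool. Slc3a2, the heavy chain that carries LAT1 to the membrane, had 7.59 in mutant pool 3, 6.53, 6.84, 6.59, 6.38 and 6.67 in the other mutant pools, and 6.45, 6.73 and 7.41 in the control pools as lowest, median and highest. Control pools 3 and 4 were also high for Slc3a2, at 7.41 and 7.34.

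Slc6a9, the glycine transporter GLYT1, had 7.58 in mutant pool 3, 5.97, 6.95, 6.20, 6.22 and 6.27 in the other mutant pools, and 6.29, 6.44 and 6.58 in the control pools as lowest, median and highest. Mutant pool 2 was the next highest. Slc7a3, the cationic amino acid transporter CAT3, had 9.78 in mutant pool 3, 9.06, 8.84, 8.72, 8.76 and 8.87 in the other mutant pools, and 8.25, 8.57 and 8.68 in the control pools as lowest, median and highest. Here all 6 mutant pools lay above all 6 control pools. A second Slc7a3 probe, detected on 5 arrays but not in mutant pool 3, differed by -0.42.

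Slc1a4, a neutral amino acid transporter, lay 0.65 above, at 9.83 in mutant pool 3 against 8.97 to 9.42 in the others. Slc7a11, the cystine transporter, and Slc7a1, a cationic amino acid transporter, were not detected on any array.

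Chac1 had the largest difference of the list. It encodes an enzyme that degrades glutathione and is a target of ATF4 and CHOP. It had 12.04 in mutant pool 3, 9.20, 9.11, 9.48, 9.61 and 9.67 in the other mutant pools, and 9.49, 9.64 and 9.79 as lowest, median and highest of the control pools. Mutant pool 3 was 2.50 over the mean of the other 11 pools (5.66-fold), and mutant pools 1 and 2 were the lowest of the 12.

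Fgf21, for a secreted metabolic hormone, was left out of the tests, being detected on 3 of 12 arrays, those of mutant pool 3, 1 other mutant pool and 1 control pool. Its value was 7.03 in mutant pool 3 and 4.88 to 5.69 in the other 11 pools. Herpud1, an ER-associated degradation gene, lay 0.34 above by its brightest probe and 0.68 by a dimmer one. Stc2, a secreted glycoprotein gene, lay 0.34 above, and Vldlr, a lipoprotein receptor gene, lay 0.29 above by its brightest probe, with control pool 3 higher than mutant pool 3, and 0.45 and 0.46 above by 2 dimmer probes, with mutant pool 3 highest.

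ATF4 binds with C/EBP proteins at a composite element, and the bases upstream of the genes are shown for the genes whose difference was largest among those that carry its letters, Chac1, Fgf21 and Nupr1, and for Herpud1 and Asns, whose differences were smaller. The letters searched were TGATGNAA on both strands, in the 250 bases before the RefSeq transcription start (build GRCm38.p6). They were in 8 of the 28 listed genes with an entry (28.6%) and in 3.91% of all genes with an entry. The list is made of ATF4 targets, so the higher share is built into it and is no result about mutant pool 3. Among tested genes with an entry, the letters were in 5 of 21 listed genes (23.8%) and in 2.60% of all. Of the 5 genes with an entry among the 7 at least 1 above in mutant pool 3, Chac1 and Nupr1 held them. Fgf21, Herpud1, Asns, Vldlr, Pck2 and Slc7a11 were the others, and Slc7a5, Slc7a3, Aldh1l2, Eif4ebp1 and Cth had no entry. Each sequence runs 5′ to 3′ on the strand of its gene, and capitals mark the match. The regions are chr2:119350992-119351241 (plus strand) for Chac1, chr7:45615491-45615740 (minus) for Fgf21, chr7:126625471-126625720 (minus) for Nupr1, chr8:94386179-94386428 (plus) for Herpud1 and chr6:7693210-7693459 (minus) for Asns.
Chac1: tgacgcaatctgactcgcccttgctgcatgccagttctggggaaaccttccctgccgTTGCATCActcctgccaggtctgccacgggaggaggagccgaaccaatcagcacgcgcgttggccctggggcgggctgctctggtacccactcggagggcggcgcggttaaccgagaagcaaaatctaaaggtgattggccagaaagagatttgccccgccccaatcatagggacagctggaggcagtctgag
Fgf21: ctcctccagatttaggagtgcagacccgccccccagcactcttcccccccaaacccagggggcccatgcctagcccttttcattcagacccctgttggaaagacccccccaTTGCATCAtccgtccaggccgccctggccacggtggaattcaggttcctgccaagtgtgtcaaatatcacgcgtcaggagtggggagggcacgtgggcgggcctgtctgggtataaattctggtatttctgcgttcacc
Nupr1: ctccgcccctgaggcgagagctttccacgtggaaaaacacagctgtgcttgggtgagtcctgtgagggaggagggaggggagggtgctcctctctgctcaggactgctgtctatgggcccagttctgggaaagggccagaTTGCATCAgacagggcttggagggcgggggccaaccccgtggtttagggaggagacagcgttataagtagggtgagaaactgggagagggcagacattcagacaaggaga
Herpud1: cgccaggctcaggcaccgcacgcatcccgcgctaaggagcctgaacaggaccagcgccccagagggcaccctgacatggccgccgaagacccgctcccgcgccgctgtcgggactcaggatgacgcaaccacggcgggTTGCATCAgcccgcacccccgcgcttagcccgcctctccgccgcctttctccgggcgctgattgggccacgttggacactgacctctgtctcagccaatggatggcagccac
Asns: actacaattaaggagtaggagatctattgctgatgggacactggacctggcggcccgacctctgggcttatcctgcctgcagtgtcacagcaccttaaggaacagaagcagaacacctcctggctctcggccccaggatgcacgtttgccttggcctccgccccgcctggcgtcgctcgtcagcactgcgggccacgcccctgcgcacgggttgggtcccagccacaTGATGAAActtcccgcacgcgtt

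In the first 4 sequences the capitals read TTGCATCA, which is the element on the opposite strand, and in Asns they read TGATGAAA on the strand of the gene. Counted from the transcription start, the match begins at position -193 in Chac1, -139 in Fgf21, -110 in Nupr1, -112 in Herpud1 and -23 in Asns. A match says that the letters are present, not that a factor binds there. Among genes with an entry but without these letters in the window were Mthfd2 and Shmt2. Whether the differences go with a match was not tested.

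The comparison of genotypes was made without mutant pool 3, so that it does not use the contrast that chose the genes. None of the 25 genes passed an adjusted p of 0.05 in limma over the other 5 mutant and 6 control pools, where 0.0108% of all tested genes were called higher in mutants and 0.217% lower. The smallest adjusted p of the 25 was 0.48, for Slc7a3. At an unadjusted p under 0.05 there were 4 of the 25, Slc7a3 higher in mutants and Mthfd2, Chac1 and Ddit4 lower, where 6.17% of all tested genes met it. The median difference, mutant minus control, was -0.06 over the 25 genes and 0.00061 over all tested genes. Of the 25 differences 19 were below 0, where 4590 of the 9223 tested genes had one below 0. Leaving out a mutant pool because it stood high puts the mutant means of these genes below those over all 12 pools. Its part in the count of 19 was not tested.

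Slc7a3 had the largest positive difference, 0.33 (SE 0.10, adjusted p = 0.48), with a mean of 8.85 ± 0.13 in mutant pools (SD, n = 5) and 8.52 ± 0.19 in control pools (SD, n = 6). Its mutant pools lay above all control pools without overlap, which 0.217% of all tested genes showed in that direction, and it was the 1 gene of the 25 that did. In the opposite direction none of the 25 was free of overlap, against 0.748% of all tested genes. The difference was 0.42 between the pools of chip 1 and 0.28 between those of chip 2.

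Ddit4 had the largest negative difference, -0.41 (SE 0.16, adjusted p = 0.74). Its levels were 9.60, 10.04, 10.67, 9.68 and 9.98 in the mutant pools, and 10.21, 10.40 and 10.59 as lowest, median and highest of the control pools. Of the mutant pools 4 lay below every control pool, and mutant pool 4 above them all. Slc3a2 followed with -0.28 (SE 0.17, adjusted p = 0.89), and its groups overlapped.

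Mthfd2 averaged 7.45 ± 0.13 in mutant pools (SD, n = 5) and 7.72 ± 0.13 in control pools (SD, n = 6), a difference of -0.27 in limma (adjusted p = 0.56). Chac1 averaged 9.42 ± 0.25 in mutant pools and 9.65 ± 0.11 in control pools (SD, n = 5 and 6), a difference of -0.23 (adjusted p = 0.82). Both genes overlapped between groups, through mutant pool 2 and control pool 1 for Mthfd2. Eif4ebp1, Psat1 and Trib3 were the next highest differences after Slc7a3, with 0.12, 0.06 and 0.05, each smaller than the SD of either group.

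A missed threshold does not show equal levels, and the 95% confidence intervals give the bounds. Over the 25 genes they ran from a lowest bound of -0.76, in Ddit4, to a highest of 0.55, in Slc7a3, and all 25 lay within 1 of 0. For the 7 genes at least 1 above in mutant pool 3, the intervals ran from -0.46 to 0.55. The differences of these genes in mutant pool 3 were 1.11 to 2.50.

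With mutant pool 3 included, as in the design of the study, the same genes had a median difference of 0.08, and 20 of the 25 were above 0. Over all tested genes the median was 0.0030, and 4707 of 9223 were above 0. None was called in that limma fit either, where 0.0217% of all tested genes were called higher in mutants and 0.249% lower. At an unadjusted p under 0.05 there were 2 of the 25, Slc7a3 and Ddit4, where 600 of the 9223 tested genes met it. The smallest adjusted p of the 25 was 0.52. The difference of Chac1 was 0.21 (SE 0.38) with the pool and -0.23 (SE 0.11) without it, and that of Mthfd2 was 0.02 (SE 0.25) with it and -0.27 (SE 0.08) without it. Both differences were above 0 with the pool and below 0 without it, and that of Mthfd2 was also below 0, at -0.03, when control pool 1 alone was left out of the 12. The pool is among the mutants, so the 12-pool values contain the contrast that chose the genes.

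**Figure D3:**
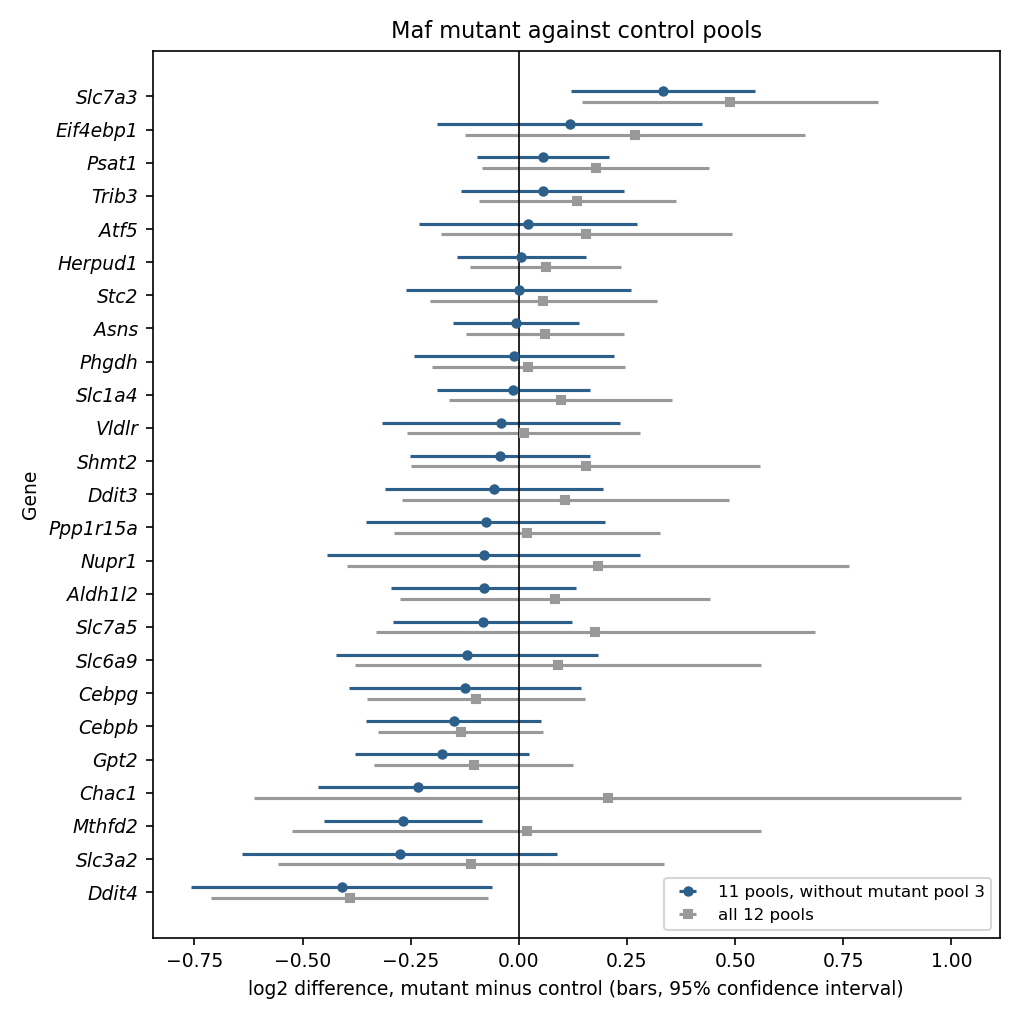
Log2 difference, mutant minus control, with its 95% confidence interval for the 25 genes, from the 11 pools without mutant pool 3 (blue circles) and from all 12 pools (grey squares). Slc7a3, at the top, is higher in mutants in both sets, and the grey interval of Chac1 reaches 1.02 while the blue one stays below 0.

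The chips gave the same sign for 14 of the 25 genes without mutant pool 3, 4 higher in mutants on both chips and 10 lower. Those higher on both were Slc7a3, Eif4ebp1, Psat1 and Trib3, with Eif4ebp1, Psat1 and Trib3 at only 0.02, 0.02 and 0.03 on chip 2. The share of all tested genes with the same sign on both chips was not computed, so nothing is read from these counts.

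The genes varied together through the pool that chose them. Over the 11 other pools the mean correlation between pairs of the 25 genes was 0.025, and for the 7 genes at least 1 above it was 0.0022, against 0.0055 between pairs of all tested genes. With mutant pool 3 added these means were 0.45, 0.79 and 0.0047. The correlations rest on 11 or 12 pools that share 2 chips and are given as a description. The median SD over the other 11 pools was 0.20 for the 25 genes and 0.16 for all tested genes.

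Other genes of the same pathways were looked at as lists, and in 13 lists of pathway and stress genes no gene was called by limma in either set of pools. At an unadjusted p under 0.05 in the 11 pools there were 11 of 127 tested genes, where 6.17% of all tested genes met it. Nothing is read from that count. The values of mutant pool 3 in these lists are described, with no test. Cytosolic aminoacyl-tRNA synthetases, which charge tRNAs with amino acids and include ATF4 targets, had a median difference of 0.25, with 13 of 16 above 0. In mutant pool 3, 11 of them were highest of the 12 pools. Of the 9223 tested genes 4838 lay above 0, and 19.6% were highest there. Sars had the largest, 0.60 (10.43 in mutant pool 3, against 9.67 to 9.97 in the other 11 pools), then Lars with 0.58 and Mars1 with 0.54. Their mitochondrial counterparts had a median of 0.18 over 12 genes, led by Mars2 with 0.43 and by Lars2 and Ears2 with 0.42 each.

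Genes of the ATF6 and XBP1 branches of the unfolded protein response, ER chaperones among them, lay on the other side. Beside chaperones and folding enzymes the tested genes were Xbp1, Sel1l, Syvn1, Derl2 and Sec24d. The list is called ER chaperones below. The median of this list was -0.26 over 15 genes, and 4 of them were above 0. In mutant pool 3, 7 were lowest of the 12 pools, where 16% of all tested genes were. Calr, calreticulin, lay at -0.50 (7.68 in mutant pool 3, against 7.82 to 8.41 in the other 11 pools) and Pdia6, a disulphide isomerase gene, at -0.49. Hspa5, the chaperone BiP, lay at -0.31. Hyou1, an ER chaperone gene, was the exception with 0.63 (6.73 against 5.41 to 6.45).

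Heat shock genes were also low, with a median of -0.35 over 9 genes. In mutant pool 3, 4 of them were lowest of the 12 pools, where 16% of all tested genes were. Dnaja1 lay at -0.56, Hsp90aa1 at -0.48 and Hsph1 at -0.40. The score of this list, the mean over its genes of the level minus its mean over 12 pools, was -0.25 in mutant pool 3, -0.04 to 0.06 in the other mutant pools and -0.06 to 0.12 in the control pools. The score of the ER chaperones was -0.17 in mutant pool 3, -0.01 to 0.07 in the other mutant pools and -0.08 to 0.08 in the control pools.

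The remaining stress lists had medians of 0.06 for mitochondrial chaperones, -0.06 for NRF2 targets, -0.08 for p53 targets, 0.09 for hypoxia targets, 0.27 for glucocorticoid targets and 0.11 for immediate early genes. Among glucocorticoid targets 8 of 10 lay above 0, led by Plin4 with 0.77, Per1 with 0.60 and Fkbp5 with 0.57. The score of that list was 0.26 in mutant pool 3, -0.50 to 0.36 in the other mutant pools and -0.32 to 0.47 in the control pools. Among immediate early genes Zfp36 lay 0.61 above and Arc at -0.43. Single genes in the other lists also differed both ways. Cdkn1a, the cell cycle inhibitor p21, lay 0.66 above and Mdm2, the ligase that degrades p53, at -0.56. Hmox1, haem oxygenase, lay 0.58 above, Me1, malic enzyme, at -0.50, and P4ha1, a collagen prolyl hydroxylase gene, at -0.81. Serine, glycine and folate enzymes outside the list had a median of 0.20 over 4 genes, with Aldh1l1 0.46 above and Tyms at -0.54, and amino acid transporters outside it had a median of -0.15 over 8 genes, with Slc38a7 0.44 above.

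**Figure D4:**
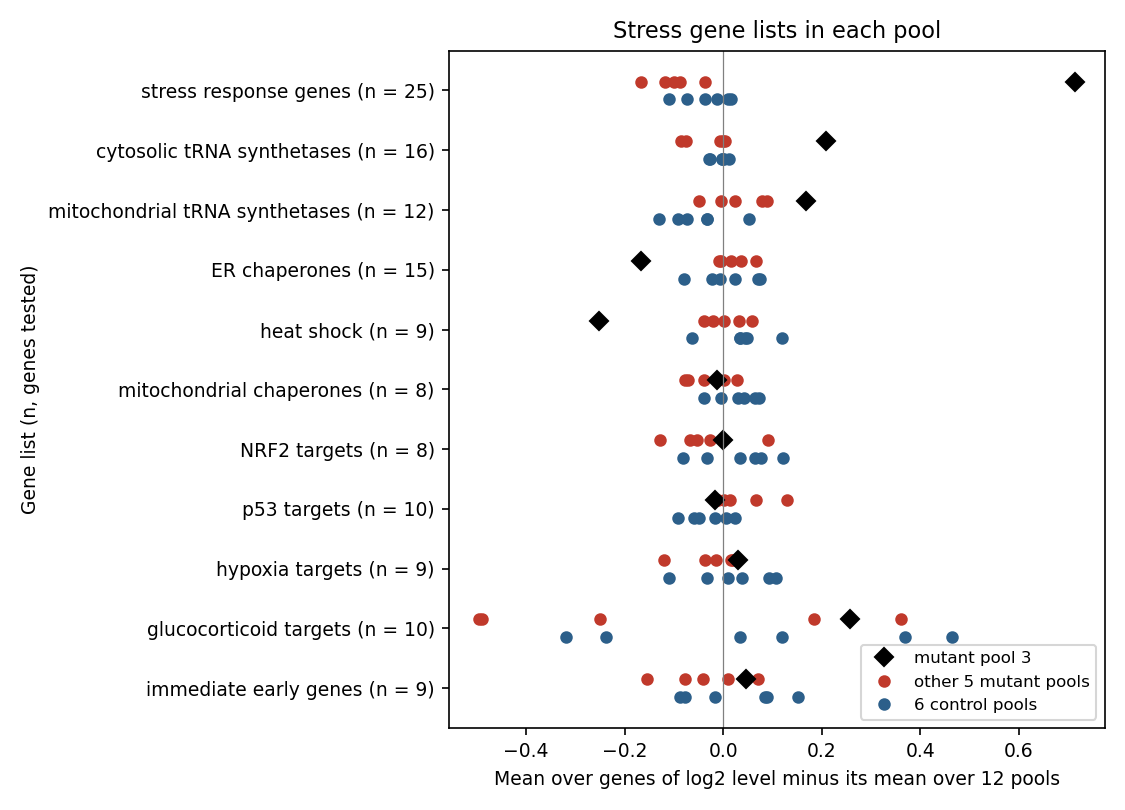
Mean over the genes of each list of the log2 level minus its mean over the 12 pools, 1 point for each pool, with mutant pool 3 as a black diamond, the other 5 mutant pools in red and the 6 control pools in blue. Mutant pool 3 is highest at 0.71 for the stress response genes, which were chosen on it, and lowest for ER chaperones at -0.17 and heat shock at -0.25. The list of ER chaperones also holds other genes of the ATF6 and XBP1 branches.

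Mutant pool 3 stood apart in more than these genes, and the array and cell type measures that moved with it are as follows. Its array had the fewest detected probes, 12822 against 12892 to 13491, the lowest array weight in limma, 0.39 against 0.72 to 1.49, and the lowest median correlation with the other arrays, 0.981 against 0.986 to 0.989. It had 38 genes at least 1 above the others and 64 at least 1 below, where the other pools had 7 to 19 above and 7 to 31 below. The list made up 7 of the 38.

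Sensory neuron markers were present in it, with 9 of 11 annotated markers tested and a median difference of -0.18 in mutant pool 3. Satellite glia had their lowest score of the 12 pools there, -0.30, against -0.19 to 0.01 in the other mutant pools and -0.11 to 0.30 in the control pools, with 5 of 6 markers below the mean of the others. Myelinating Schwann cell markers scored -0.20 in mutant pool 3, -0.21 to 0.14 in the other mutant pools and -0.20 to 0.29 in the control pools. Of the 6 tested Schwann cell markers 3 lay above the mean of the others, with Ncmap at 0.41. The myelin gene Pmp2 lay lowest, at -1.41, and the median of the 6 was -0.03. In bulk RNA, fewer cells of a type and less RNA per cell cannot be told apart.

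Macrophage markers scored 0.20 in mutant pool 3, -0.05 to 0.16 in the other mutant pools and -0.44 to 0.15 in the control pools, with 6 of 9 markers above the mean of the others. Neutrophil markers scored 0.80 in mutant pool 3, -0.36 to 1.26 in the other mutant pools and -0.90 to 0.16 in the control pools, with 4 of 5 above and Camp and Retnlg not detected on enough arrays to be tested. The highest neutrophil score was that of mutant pool 1.

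Of neighbouring tissues, markers of spinal cord scored lowest in mutant pool 3, at -0.39 by 2 of 9 annotated markers, Aqp4 and Slc1a2. Of those not tested, Gad1 and Chat, detected on 3 arrays each, lay 0.37 and 0.31 above, and Mobp, Gfap, Hoxb8 and Slc6a5 were not detected on any array. Skeletal muscle scored 0.03 by 4 of 8 markers, with Ckm not detected on any array. The other mutant pools scored -0.26 to -0.07 for it, and the control pools 0.00097 to 0.31. Among the 4 was Myh8, which was called lower in mutants over the 11 pools (-1.30, limma adjusted p = 0.013). The part of Myh8 in the muscle score was not tested. Endothelium scored 0.07, against -0.14 to 0.04 in the other mutant pools and -0.15 to 0.31 in the control pools. Fibroblast and meningeal markers scored -0.23, against -0.36 to 0.16 in the other mutant pools and -0.10 to 0.34 in the control pools. Cartilage and bone scored -0.11, erythroid cells 0.02, and none of 5 annotated adipocyte markers passed the filter. The part of array quality and of each cell type in the values of mutant pool 3 was not tested.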

How the data were processed

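Total RNA was labelled and hybridised to Illumina BeadChips, 1 array for each of the 12 pools. The deposited scanner table holds a probe intensity, not normalised, and a detection p-value for each probe and array, per the file headers. The authors' processed values are a linear intensity as well and served as an alternative. GenomeStudio is named in the submitters' processing notes, with its version and settings not given in the sources used here. Of 25697 probes, 23978 carried 1 gene symbol in the platform annotation, none carried several and 1719 were not listed. By gene ID, 23962 matched RefSeq (GRCm38.p6).

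Intensities were background-corrected, quantile-normalised and put on a log2 scale with neqc in limma 3.58.1 (R 4.3.3), with an offset of 16. Probes with a detection p under 0.05 on at least 6 arrays were kept (13177 probes, 12520 left out). Over all probes, kept or not, 12822 to 13491 were detected on an array. Differences were fitted with lmFit and eBayes over all kept probes, with Benjamini-Hochberg adjustment over them, and tested on simulated data. A list score is the mean over its genes of the level minus its mean over 12 pools. The genes and lists were chosen with earlier results of these data known. Values by pool are given for genes at least 1 above in mutant pool 3, for the 4 largest genotype differences each way, and for Maf and Atf4. From each pathway or stress list up to 3 genes with the largest difference are named. Eif2ak1, Eif2ak2, Eif2ak3, Eif2ak4, Eif2b1, Ppp1r15b, Atf3 and Hspa5 were added after their values were seen. Dimmer probes are given where they differ by over 0.5, and for Ddit3, Aldh1l2, Asns, Herpud1 and Vldlr.

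Pools with the same number did not all deviate together: the correlations of their deviations from the group means were 0.02, 0.14, 0.16, -0.04, -0.12 and 0.19 for numbers 1 to 6, 3 of them over 0.1, so the numbers were not taken as pairs. Alternatives were the offset, the normalisation, the processed table, the probe filter, the chip, array weights, the replicate block, leaving out each pool, and the mean of a gene's probes.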

Additional observations from a re-analysis of the deposited data

Results flagged for a closer look

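In each group of 6 pools, a value was marked when the gap from the highest or lowest pool to the nearest of the others took more of the group's range than Dixon's 95% critical value for 6 samples. Chance marks about 1 in 20 groups. Of 84 groups looked at, 17 were marked, 16 of them for mutant pool 3 among the mutants. Since these genes were chosen on that pool, their marks add nothing to it.

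For single genes the share of the range taken by the gap was 0.818 for Mthfd2, 0.810 for Chac1, 0.794 for Psat1, 0.788 for Nupr1, 0.779 for Slc7a5, 0.730 for Shmt2 and 0.673 for Slc7a3, all on the high side. For the mean score of the 25 genes it was 0.852. By role it was 0.921 for serine and one-carbon enzymes, 0.820 for transporters, 0.749 for other amino acid enzymes, 0.691 for glutathione, ER and secreted factors and 0.635 for regulators.

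Outside the list, cytosolic aminoacyl-tRNA synthetases stood high in mutant pool 3, with 0.699. On the low side stood ER chaperones, with 0.673, and heat shock genes, with 0.688. The remaining mark was the erythroid score of mutant pool 1, low among the mutants with 0.684.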

How the results depend on the processing

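None of the 25 genes was called in limma under any alternative, with or without mutant pool 3. The count of all genes called between genotypes depended on the pools: the 21 genes of the 11-pool comparison became 2 on chip 1 alone, 1 on chip 2 alone and 5 with the replicate block, and lay between 8 and 22 when each pool was left out in turn, with 8 without mutant pool 1, 10 without mutant pool 5, 11 without control pool 1 and 13 without control pool 2. The 25 genes of the 12-pool comparison became 4 on chip 1 alone and 1 on chip 2 alone, and 18 with the replicate block. Pool numbers are shared labels: 3 of 12 pools correlated best with the pool of their own number. The cause of these changes, beyond fewer pools, was not tested. In mutant pool 3 the median of the list was 0.51 in place of 0.76 with no filter on dim probes, when genes at background join it. A difference of at least 0.5 in place of 1 was met by 16 in place of 7 listed genes. Of the 9223 tested genes, 457 in place of 38 met it. Over the 12 pools, Mthfd2 changed sign to -0.16 with array weights, -0.38 on chip 2 alone and -0.03 without control pool 1, and Chac1 to -0.02 with array weights and -0.12 on chip 2 alone. Slc3a2 changed to 0.03 on chip 1 alone. The number of arrays and signals near background limit what these data can show.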

Other observations

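The genes outside the list that differed most in mutant pool 3 are given as values chosen by size, with no test. Stfa1, a stefin gene of myeloid cells, had 8.86 in mutant pool 3, 4.69 to 7.78 in the other 11 pools, and a difference of 2.97. S100a8, a neutrophil gene, had 9.92 in mutant pool 3, with mutant pool 1 higher at 10.21. Serpina1e, a protease inhibitor gene of liver, had 7.75 against 4.51 to 6.81. Cox6a2, the muscle form of a cytochrome oxidase subunit, had 8.63 in mutant pool 3 and 6.52 to 7.16 in the other 11 pools, which was clear of all of them.

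On the low side, Ttc27 had 6.12 in mutant pool 3 and 6.20 in mutant pool 2, against 8.86 to 9.71 in the other 10 pools. Zc3h13 was likewise lowest in both, with 4.66 and 4.77, and control pool 3 came next with 5.51. Cdkn2b, a cell cycle inhibitor gene, had 6.37 against 7.54 to 8.75, and Pbk, a mitotic kinase gene, had 4.65 against 6.04 to 7.01, each clear of the other 11 pools. The Y-linked Eif2s3y was at background in mutant pools 2, 3 and 6 and in control pools 3, 4 and 5. Its part in the values of the stress response genes was not tested.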
